A study of Mus musculus with 15 samples.

Results

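Exc_10 is one of 26 high-resolution clusters of excitatory neurons in the single-cell RNA-seq map of the mouse prefrontal cortex (PFC). Its members were the cells that the deposited cell table assigns to Exc_10 in its fine cluster column, and 1115 of the 35360 retained cells were members, among 20377 cells of the 26 excitatory clusters. The number belongs to this fine set of clusters and not to the 13 broader subtypes of the study, which are numbered separately. The 12 adult libraries held 1022 members and the 3 libraries of young mice held 93. All mice were male C57BL/6N, and each adult library pooled the tissue of 2 mice. The adult mice, called P60 here, were 8 to 10 weeks old by the labels and self-administered saline or cocaine intravenously. By the paper, catheters were implanted at P60, and self-administration over 15 d came before any withdrawal. Age at collection was thus later than P60 and differed between time points. They were taken during maintenance of self-administration, after 48 h of withdrawal or after 15 d of withdrawal. The young mice, called P21, were 3 weeks old and had no self-administration. Libraries are named here by the numbers of their titles. Cocaine libraries were 1 and 4 at maintenance, 6 and 8 at 48 h, and 9 and 10 at 15 d. Saline libraries were 2 and 3 at maintenance, 5 and 7 at 48 h, and 11 and 12 at 15 d. The P21 libraries are P21-1, P21-2 and P21-3.

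Excitatory neurons of the cortex release glutamate and are ordered in layers, and each layer holds cells that send their axons to different targets. Intratelencephalic (IT) cells project within the cortex and to the striatum, pyramidal tract (PT) cells to the brainstem and spinal cord, corticothalamic (CT) cells to the thalamus, and near-projecting (NP) cells stay close by. Rorb, a nuclear receptor, is a classical marker of IT cells in layer 4 and upper layer 5, and the rodent PFC lacks the dense layer 4 of sensory areas.

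The number of members per library was uneven, with 10 to 33 in libraries 1 to 6, 74 to 265 in libraries 7 to 12 and 25 to 41 at P21. Summed over members, a library held between 115191 UMIs (library 5) and 3063934 UMIs (library 9). The median member held 11802.5 UMIs and 3739.5 genes at P60, and 7510 UMIs and 2968 genes at P21. In libraries 1 and 6 the median member held only 7038 and 7442 UMIs. The largest number of barcodes that a pair of libraries shared was 27, and 0 Exc_10 barcodes were shared. The authors' broad class was excitatory for 1109 members. The other 6 were 2 inhibitory, 2 endothelial, 1 astrocyte and 1 oligodendrocyte precursor, and 5 of these 6 were in P21 libraries. Levels are given as CPM, the UMIs of a gene after scaling to a total of 1000000 UMIs, with mitochondrial and ribosomal protein genes left aside. CPM from a 3′ tag assay compare the same gene between cells and not one gene with another.

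The members carried the markers of excitatory neurons. Slc17a7, the vesicular glutamate transporter of most cortical excitatory cells, was at 354 ± 103 CPM (SD, n = 12 P60 libraries) and had a UMI in 93.7% of P60 members, against 9.37% of endothelial cells, which should lack it. Median depth was 11802.5 UMIs in these members and 4516.5 in endothelial cells. After thinning each cell to 3000 UMIs the shares were 59.9% and 6.35%. Gad1, which makes GABA, had a UMI in 2.35% of P60 members and 1.26% of endothelial cells, and in 0.881% and 0.943% after thinning. The summed level of 8 inhibitory markers was 0 to 21.8 CPM in the members of the P60 libraries, against at least 6037 CPM in inhibitory neurons. At P21 the same sum was 40.3 to 178 CPM. The P21 maximum was in library P21-2, where Pvalb was at 112 CPM. Summed markers of other types in the members lay between 427 and 1091 CPM for astrocytes, 391 and 1019 CPM for endothelial cells, 18.6 and 214 CPM for oligodendrocytes and 7.39 and 80.6 CPM for microglia. In the other excitatory clusters these sums were 335 to 934, 528 to 1072, 59.2 to 594 and 12.1 to 135 CPM.

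By layer, the members of Exc_10 carried markers of layer 4/5 IT cells, together with genes of some other layers. Because the clusters were made from these same genes, the levels that follow are a description and no test was run between clusters. Genes were counted in a list when Exc_10 or the median of the other 25 clusters was at 10 CPM or more. A gene that met this only through a high level in Exc_10 was bound to be over the median, so the counts describe the lists and support no identity. Of 8 listed layer 4/5 IT markers, 5 were counted and were over 1.5 times the median, and 4 of these 5 (all but Rorb) were counted through Exc_10 alone. Over all 8230 genes counted in this way, 6.63% were more than 1.5 times that median, 3.84% were less than the median by the same factor, and the median ratio was 1.02. All ratios are of CPM + 1. The 5 markers were Rorb, Rspo1, Whrn, Thsd7a and Kcnab3. Exc_23 was above Exc_10 for Whrn (32.4 against 29.2 CPM) and Thsd7a (96.4 against 48.9 CPM), and in the mean of log2(CPM + 1) over the list Exc_23 was at 3.94 and Exc_10 at 3.87. Scnn1a (0.301 CPM), Il1rapl2 (0.717 CPM) and Endou (2.38 CPM), also in that list, were close to absent.

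Rorb lies on chromosome 19 at 19005095 to 19185686 (NCBIM37, minus strand) and was higher on average in Exc_10 than in any other excitatory cluster. It was at 292 ± 37.3 CPM (SD, n = 12) in Exc_10, against 223 CPM in Exc_11, the next cluster, and a median of 37.3 CPM. In the P60 libraries in order of number, Rorb was at 319, 298, 244, 367, 243, 312, 242, 288, 296, 277, 286 and 325 CPM. No library fell below 242 CPM, so this gene was even across saline and cocaine and across libraries with few and many members. A Rorb UMI was seen in 88.8% of P60 members and in 4.26% of endothelial cells.

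Markers of other layers gave a mixed picture. In the layer 2/3 IT list 5 of 6 genes at 10 CPM or more were over 1.5 times the median: Cux2, Cux1, Calb1, Mef2c and 6330527O06Rik (Lamp5). Calb1, a calcium buffer of upper-layer cells, was at 133 ± 42.7 CPM and Cux2, a homeobox factor of upper layers, at 60.0 ± 19.3 CPM, but 7 and 10 other clusters were above Exc_10 for these genes. Of the layer 5 IT genes 3 of 5 were under the median by that factor, among them Etv1 at 9.39 CPM against a median of 40.2 CPM. In the PT list 2 of 4 were under, Bcl11b (2.16 CPM) and Fezf2 (12.3 CPM), and Pou3f1 was over, at 11.9 CPM against 1.18 CPM. In the CT list 3 of 4 genes at 10 CPM or more were over and 0 under: Rprm (102 CPM against 31.9 CPM), Tle4 (15.0 against 9.42 CPM) and Hs3st4 (25.2 against 6.57 CPM). All 3 were far below the highest cluster, where Rprm was at 2212, Tle4 at 205 and Hs3st4 at 212 CPM, and the CT markers Foxp2 (1.48 CPM) and Syt6 (0.239 CPM) were near absent. In the layer 6 IT list Synpr was over, at 387 CPM against 224 CPM, and Nnat (2.88 CPM against 23.5 CPM) and Gnb4 (4.41 CPM against 42.3 CPM) were under. In the NP list 2 of 3 genes at 10 CPM or more were over, Tshz2 and Slc17a6, and 1 was under, Lypd1. In the mean of log2(CPM + 1) over that list Exc_10 ranked 8 of 26. Tshz2, which marks NP cells among excitatory neurons, was at 65.0 ± 33.1 CPM, the level that ranked 3 of 26. The cluster with most of it, Exc_21, had 2099 CPM. A Tshz2 UMI was seen in 35.2% of P60 members but in 68.7% of endothelial cells, and in 16.5% and 54.1% after thinning. Slc17a6, the second vesicular glutamate transporter, was at 33.1 ± 8.07 CPM and ranked 2 of 26, behind 114 CPM in Exc_21.

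**Figure D1:**
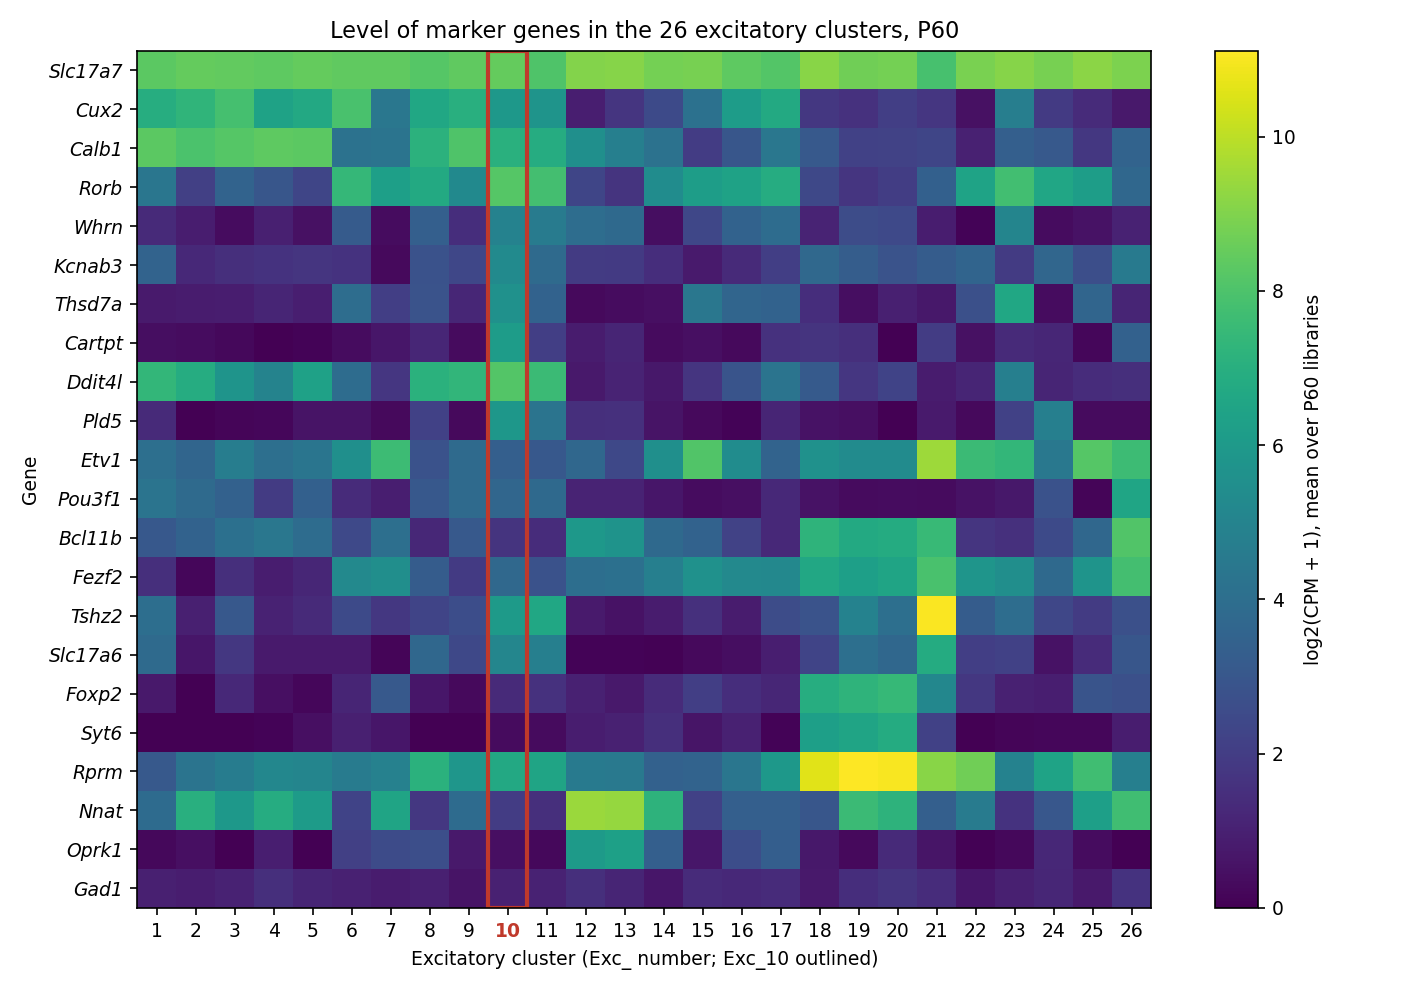
Mean level over P60 libraries, as log2(CPM + 1), of layer and cell type markers (vertical axis) in the 26 excitatory clusters (horizontal axis), with Exc_10 outlined. Exc_10 combines high Rorb (292 CPM) with Cartpt (70.4 CPM), Ddit4l (280 CPM) and Pld5 (57.5 CPM), and is dark for Syt6, Foxp2, Nnat and Bcl11b.

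Few genes set Exc_10 apart from every other cluster. Of 6029 genes at 20 CPM or more in Exc_10, 257 were highest there, but only 6 exceeded the next cluster by more than 1.5 times and 4 by more than 2 times. The first was Cartpt, the precursor of the cocaine- and amphetamine-regulated transcript peptides (chromosome 13, 100668439 to 100670638, NCBIM37, minus strand). Its level was 70.4 ± 51.0 CPM (SD, n = 12), against 9.92 CPM in Exc_26, the next cluster, a ratio of 6.55. In libraries 1 to 6 it was at 4.84, 29.5, 77.3, 42.3, 9.36 and 19.9 CPM. Libraries 7 to 12 had 107, 176, 107, 109, 81.4 and 81.8 CPM. All of libraries 7 to 12, with 74 or more members each, lay above each of libraries 1 to 6, with 33 or fewer, and both sets hold saline and cocaine libraries. The part of the number of members in this difference was not tested.

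Cartpt RNA was found in a minority of the members. A UMI was seen in 26.7% of the 1022 P60 members, with 3.57% to 19.2% in libraries 1 to 6 and 27.2% to 32.4% in libraries 7 to 12. The shares were 3.26% in Exc_11, 0.879% over the other excitatory clusters together and 0.224% in endothelial cells. Thinned to 3000 UMIs per cell, they were 13.2% (95% Wilson interval 11.3% to 15.4%) in Exc_10, 0.752% in Exc_11, 0.298% in the other excitatory clusters and 0.152% in endothelial cells, with 1 member, 0, 15 and 277 cells left out for depth. Such intervals cover counting error only. In library 9, with 302 Cartpt UMIs, the richest cell held 33 of them, among 78 cells that had a UMI. In libraries 7 to 12 the richest cell held 10.7% to 24.1% of the Cartpt UMIs. In libraries 1 to 6 it held 40% to 100%, on 1 to 25 UMIs, and in P21-2 it held 30 of 42. At P21, 30.1% of the 93 members had a Cartpt UMI, against 3.18% over the other excitatory clusters together. Single clusters came closer at that age, with 22.2% of 45 cells in Exc_11 and 16.0% of 150 cells in Exc_8. Thinned to 3000 UMIs per cell, the 95% Wilson intervals of Exc_10 and Exc_11 overlapped at P21. Cartpt therefore set Exc_10 apart from Exc_11 less clearly at P21 than at P60.

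The other 11 of the 12 largest ratios were smaller. Inadl, a scaffold protein of cell polarity, was at 30 ± 19.4 CPM against 10.4 CPM in Exc_23 (ratio 2.72). Pld5, a member of the phospholipase D family on chromosome 1 at 177892437 to 178205443 (minus strand), was at 57.5 ± 25.8 CPM against 26.7 CPM in Exc_24 (2.12). Its level was 0 CPM in library 5, which has 10 members, and 33.9 to 89.8 CPM in the other 11 P60 libraries. Gm13629 was at 49.0 ± 15.1 CPM against 23.4 CPM in Exc_11 (2.05). It is a processed transcript on chromosome 2 at 66278937 to 66384083 whose exons overlap Scn9a on the other strand, so its value is uncertain where reads of both strands could be counted. Kcnab3, a potassium channel beta subunit, was at 39.0 ± 20.7 CPM against 22.6 CPM in Exc_26 (1.69), and Afap1l1, an actin-associated protein, at 28.3 ± 13.3 CPM against 17.5 CPM in Exc_11 (1.58). Tmem65, Ddit4l, Rod1, Mmel1, Tmem44 and Cdk19 completed the 12 largest ratios, at 1.37 to 1.5. Ddit4l, an inhibitor of mTOR signalling on chromosome 3 at 137284576 to 137291297, had the highest level of the 12, 280 ± 63.4 CPM against 189 CPM in Exc_11 and a median of 6.29 CPM.

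Against the median cluster rather than the next one, the largest ratios among genes at 50 CPM or more in Exc_10 were those of Cartpt (50.3), Pld5 (40.3) and Ddit4l (38.5). Tcap, a telethonin known from the sarcomere, followed at 159 ± 49.1 CPM (ratio 19.5), with Gm12371 at 50.4 CPM (12.8), Tshz2 (11.7), Fam5c at 127 ± 33.9 CPM (11.3) and Rorb (7.64). Tcap was as high in Exc_11, at 158 CPM. Among genes at 50 CPM or more in the median cluster, the lowest ratios were found for Ramp3, Cdh13, Rasl10a, Atp2b4, Jsrp1, Nov, Cplx2 and Enc1. Ramp3, a partner of calcitonin-family receptors, was at 7.16 CPM against a median of 70.3 CPM, and its share of P60 members with a UMI, 4.50%, was below that of endothelial cells, 16.9%. Atp2b4, a plasma membrane calcium pump, was at 24.3 ± 11.6 CPM against a median of 150 CPM, and Enc1, an actin-binding protein of neurons, at 39.5 ± 16.9 CPM against 170 CPM. For both of these genes Exc_10 ranked 26 of 26. Cdh13, a cadherin without a cytoplasmic tail, was at 6.42 CPM against 52.3 CPM, and Cplx2, a complexin of the release machinery, at 45.2 CPM against 200 CPM. In each of the 12 P60 libraries all 8 genes were below the median of the other clusters.

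By mean log2 profile over 9697 genes, the most similar clusters were Exc_11 (Pearson r = 0.983), Exc_8 (0.976) and Exc_23 (0.969), and the least similar was Exc_21 (0.870). These values are across genes, which are not independent replicates. In the 11 P60 libraries with 10 or more cells of both clusters, Cartpt was higher in Exc_10 than in Exc_11 and higher than in Exc_8 in 11 of 11. Its highest value was 16.5 CPM in Exc_11 and 5.07 CPM in Exc_8. Rorb was higher in Exc_10 in 10 of 11 libraries against Exc_11 and in 11 of 11 against Exc_8, and Ddit4l gave the same counts.

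Several genes were lower in Exc_10 than in a neighbour in all 11 libraries. Tnnt2, a troponin T, was at 187 ± 48.8 CPM in Exc_10, 448 CPM in Exc_11 and 82.4 CPM in Exc_8, so Exc_10 lay between its neighbours in 11 of 11 libraries for each pair. Igfbp6, which binds insulin-like growth factors, was at 179 ± 36.6 CPM against 409 CPM and 345 CPM, and Atp2b4 was lower than in both. Ctxn3 (8.00 CPM against 59.2 CPM) and Rasl10a (10.5 CPM against 61.0 CPM) were lower than in Exc_11. The peptide gene Grp was at 22.3 ± 15.6 CPM against 212 CPM in Exc_8, Mapk3, the kinase ERK1, at 35.6 ± 12.0 CPM against 116 CPM, and Pcdh17, a protocadherin, at 36.5 ± 23.9 CPM. In the other direction, Kcnk2, a background potassium channel, was at 54.7 ± 18.4 CPM against 11.4 CPM in the median cluster and was higher than in Exc_8 in 11 of 11 libraries. Nrsn2, a neurensin of vesicle membranes, was at 62.1 ± 18.2 CPM against 21 CPM in Exc_11. The haemoglobin genes Hba-a1, Hba-a2 and Hbb-b1 were also among the largest ratios to Exc_11, but in library 4 a single member held 650 of 658 Hba-a1 UMIs and in library 9 a single member held 288 of 529.

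**Figure D2:**
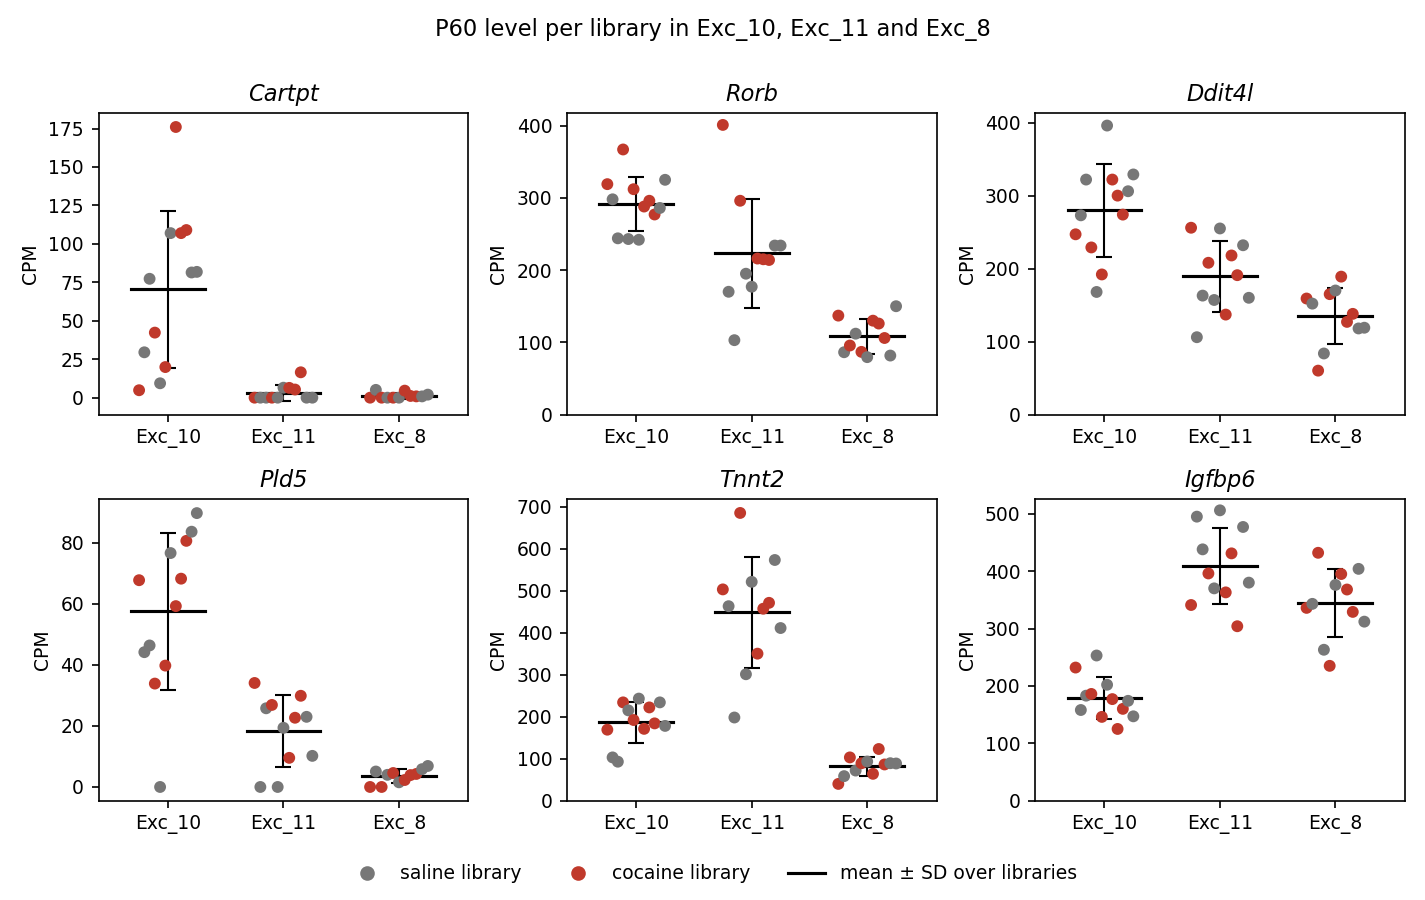
Level in CPM (vertical axes) of 6 genes in Exc_10 and its most similar clusters, Exc_11 and Exc_8, with 1 point per P60 library that has 10 or more cells of the cluster, coloured by treatment, and bars for mean ± SD. Cartpt stays at or below 16.5 CPM in Exc_11, Tnnt2 separates all 3 clusters in mean level, and Igfbp6 is lower in Exc_10 than in both neighbours.

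Lists of excitability genes held channels that were high and others that were low in these cells. Genes were counted as in the layer lists, so a gene counted through Exc_10 alone was bound to be over. Over all 8230 counted genes 6.63% were over and 3.84% under, with a median ratio of 1.02. The counts describe the lists only. For potassium channels 8 of 33 measured genes were over 1.5 times the median cluster and 2 under (median ratio 1.22), and for sodium, calcium and HCN channels 6 of 21 were over and 1 under (1.17). Kcnh7, an Erg-type potassium channel, was at 177 ± 30.8 CPM and Kcnh5 at 17.3 ± 8.16 CPM, and Exc_10 ranked 1 for both. Kcnj3, a G-protein-gated potassium channel, ranked 1 at 90.7 ± 25 CPM. Scn1a, the sodium channel Nav1.1, was at 111 ± 28.4 CPM against a median of 44.5 CPM. The beta subunit Scn4b was also high (14.0 ± 6.85 CPM against 2.41 CPM) and was counted through Exc_10 alone. Cacna1i, a T-type calcium channel, was at 54.9 ± 13.7 CPM against 18.5 CPM, and Cacna2d3, an auxiliary calcium channel subunit, at 41.7 ± 8.50 CPM against 15.7 CPM. Kcna6, Kcnt1 and Cacna1e were low, at 60.4, 9.44 and 9.44 CPM.

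Among 18 measured glutamate receptor genes 4 were over and 5 under, and among 13 GABA receptor genes 3 were over and 2 under. Over all counted genes these shares were 6.63% and 3.84%. Gria4, an AMPA receptor subunit, ranked 1 at 110 ± 24.4 CPM against a median of 53.6 CPM, while Gria3 ranked 25 at 101 ± 28.4 CPM against 185 CPM. Of the metabotropic receptors, Grm2 ranked 1 at 65.7 ± 19.5 CPM against 16.9 CPM. Gabra5 and Gabrg3, subunits of GABA-A receptors, were low, at 33.1 and 9.04 CPM against 51.8 and 21.7 CPM. Of 14 neuromodulator receptors at 10 CPM or more in Exc_10 or in the median cluster, Adora1 (106 ± 22 CPM), Crhr1 (32.7 ± 12.8 CPM) and Chrm2 (11.5 CPM) were over, and Sstr2 (2.81 CPM) and Cckbr (18.3 CPM) under. Drd1a, the D1 dopamine receptor, was at 0.122 CPM, against 27.8 CPM in Exc_12, the highest cluster.

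In the list of peptides and secreted synaptic factors 4 of 12 were over: Cartpt, Cbln4, Cbln2 and Nrn1. Cartpt and Cbln4 were counted through Exc_10 alone and so were bound to be over. The counts of this paragraph stand beside 6.63% over and 3.84% under among all 8230 counted genes, and they only describe the lists. Cbln4, a cerebellin that bridges synapses, was at 45.7 ± 15.5 CPM against a median of 1.12 CPM and 46.6 CPM in Exc_11. Bdnf was at 73.5 ± 33.7 CPM against 125 CPM and below the median in all 12 libraries. In the list of layer transcription factors 13 of 28 were over and 8 under. Foxp1 (424 ± 45 CPM), Cux1 (38.8 ± 14.8 CPM) and Pou3f3 (15.9 ± 7.05 CPM) were highest in Exc_10, and Bcl11b, Fezf2, Etv1, Sox5 and Lmo3 were among the low ones. For adhesion and guidance genes 12 of 42 were over and 8 under. Cdh8 (61.3 ± 14.1 CPM) and Robo2 (90.7 ± 22.9 CPM) ranked 1, Unc5d, a netrin receptor, was at 56.9 ± 15.6 CPM, and the semaphorin receptors Nrp1 and Nrp2 were at 7.89 and 4.59 CPM. In vesicle release 8 of 32 were over, with Stx1a, the t-SNARE syntaxin 1A, at 755 ± 64.5 CPM and Rims3 at 56.5 ± 12.9 CPM, and 2 were under. For calcium buffers and sensors 1 of 12 was over, Calb1, and 5 were under, among them Ncald at 721 ± 120 CPM against 1200 CPM. In the growth list 6 of 28 were under, and for Gap43, a growth cone protein, Exc_10 ranked 26 of 26 at 518 ± 58.3 CPM against 1127 CPM. None of 77 oxidative phosphorylation genes, 11 heat shock genes or 11 chromatin genes of the study was over or under by 1.5 times. Of 12 immediate early genes Arc was over, and Junb and Btg2 were under.

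The share of Exc_10 among excitatory neurons was lower in 3 of 3 P21 libraries than in 5 of 6 saline libraries at P60. It was 1.65%, 1.61% and 1.42% in the P21 libraries. In libraries 1 to 6 it was 4.91%, 6.54%, 4.10%, 4.76%, 1.46% and 2.46%, and in libraries 7 to 12 it was 10.2%, 8.10%, 10.1%, 6.83%, 6.58% and 8.33%. Library 5, a saline library at 1.46% (95% Wilson interval 0.795% to 2.67%), lay within the range of P21. The means were 1.56% ± 0.126 (SD, n = 3) at P21 and 6.2% ± 3.08 (SD, n = 6) in saline P60, a difference of 4.63 percentage points that missed the threshold in the two-sided exact permutation test over 84 assignments (p = 0.0714). With 1 library left out in turn, the exact permutation p lay between 0.0179 (without library 5, 5.58 points) and 0.143. Cocaine and saline P60 libraries had the same mean of 6.2% (SD 2.72 and 3.08, n = 6 each), and the two-sided exact permutation test within time points gave p = 1.0 over 216 assignments. The authors assigned P21 cells to the P60 cluster they correlated with best, so a share at P21 also depends on that assignment. The part of it in the difference was not tested.

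**Figure D3:**
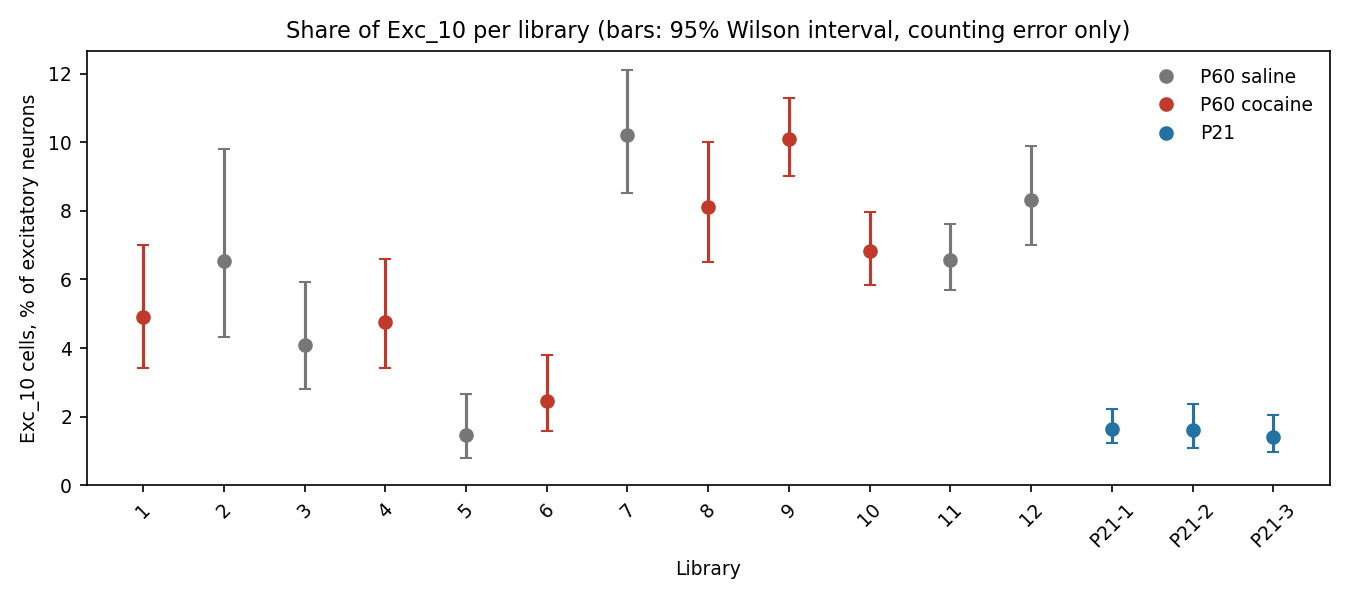
Exc_10 cells as a percentage of excitatory neurons (vertical axis) in each library (horizontal axis), coloured by age and treatment, with 95% Wilson intervals for counting error. The P21 libraries lie between 1.42% and 1.65%, and the P60 libraries between 1.46% and 10.2%.

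Between P21 and P60, called genes of the growth and immediate early lists all fell, and called genes of the vesicle release and oxidative phosphorylation lists went both ways. UMIs were summed over the members of a library, and 3 P21 libraries were compared with the 6 saline P60 libraries by edgeR's quasi-likelihood test. A gene was called when its adjusted p (Benjamini-Hochberg) was below 0.05 and it changed by over 1.5-fold, and 569 of 5242 tested genes (10.9%) met this. Of these, 229 (4.37%) were higher and 340 (6.49%) lower at P60, and for 449 the libraries of both ages did not overlap. The count of 449 rests on the same values as the calls and is no added support for them. The median difference of all tested genes was -0.01 on the log2 scale. P-values here measure the spread between libraries. The sources used here give no preparation batch, and any batch that followed age cannot be told apart from it. By the methods the saline P60 mice also went through food restriction, food training, catheter surgery and saline self-administration. The P21 mice had no self-administration, so these procedures cannot be told apart from age either. How the 4 young mice of the methods were divided over 3 libraries is not stated. Whether these libraries are independent, here and in the test of shares, is therefore not known. With P21-2 and P21-3 summed as 1 library, 520 genes were called. With every library cut to 10 members, 118 were called, and without P21-3, 302.

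Marcksl1, a MARCKS-like actin and membrane protein of growing neurites (chromosome 4, 129190825 to 129193229, plus strand), had the largest fall that separated the ages. It was at 187, 188 and 399 CPM in P21-1, P21-2 and P21-3, and at 0, 12.4, 18.7, 10.7, 9.17 and 5.11 CPM in the saline libraries. Every P21 library was far above every P60 library. The log2 difference, P60 minus P21, was -4.79 ± 0.31 (SE; edgeR adjusted p = 8.1e-11). D0H4S114 (Nrep), a protein of neurite growth and regeneration, fell from 168 ± 36.6 CPM (SD, n = 3) to 34.0 ± 7.87 CPM (SD, n = 6), a log2 difference of -2.34 ± 0.23 (edgeR adjusted p = 1.6e-09). Of 25 tested growth genes 5 fell and 0 rose: also Marcks, Gap43 (from 891 to 551 CPM, log2 -0.65) and Dpysl2. Over all tested genes 6.49% were called lower and 4.37% higher. The median log2 difference of this list was -0.29. It was -0.30 for the markers of excitatory neurons, -0.28 for adhesion and guidance genes and 0.16 for oxidative phosphorylation genes.

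Members of the immediate early list are switched on by activity and by handling of tissue. In this list 5 of 9 tested genes fell and 0 rose, with a median log2 difference of -1.02. The shares over all tested genes were 6.49% lower and 4.37% higher. Junb fell from 225 ± 22.7 to 32.7 ± 13 CPM, a log2 difference of -2.90 (edgeR adjusted p = 1.6e-09). Fos was at 210, 265 and 428 CPM at P21 and at 62.6, 86.6, 140, 63.7, 151 and 114 CPM in the saline libraries (log2 -1.44). Egr1 fell from 515 to 274 CPM (log2 -0.86), Nr4a1 by 1.16 and Ier2 by 2.69 on the log2 scale. Further falls named for their size were Gm1673 (-3.04), Hist1h2bc (-2.72), Ccdc80 (-2.50), Pfn1 (-2.36), Tmem93 (-2.35), Tomm20 (-2.19), Tmem42 (-2.19) and Cox5a (-2.16). Some of these levels moved with single libraries within P60. Junb was at 199, 239 and 236 CPM at P21, at 87.1 and 77.5 CPM in cocaine libraries 9 and 10, and at 13.3 to 50.8 CPM in the other P60 libraries. Ier2 was at 57.6, 45.8 and 44.3 CPM at P21, at 26.9 and 34.8 CPM in libraries 9 and 10, and at 0 to 14.6 CPM in the others. Both genes were higher in every P21 library than in libraries 9 and 10. Cox5a, a subunit of cytochrome c oxidase, was at 1068, 575 and 436 CPM at P21 and at 46.8 to 334 CPM in the saline libraries, but at 718 and 619 CPM in cocaine libraries 9 and 10. Tmem93 was at 308, 168 and 148 CPM at P21 and at 177 and 152 CPM in those libraries, and Gm1673 at 250, 50.9 and 59.1 CPM against 84.2 and 46.6 CPM. The part of such library differences in the comparison of ages was not tested.

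The largest rise was that of Ass1, argininosuccinate synthase of the urea and arginine cycle (chromosome 2, 31325727 to 31376192, plus strand). Its level was 2.88, 0 and 0 CPM at P21 and 61.6 ± 23.4 CPM (SD, n = 6) in saline P60. The P21 value rests on 1 UMI, and the ratio of summed levels was 33.7 (exact counting interval 5.99 to 1336). The log2 difference of the fit was 4.96 ± 0.73 (edgeR adjusted p = 1.5e-05). Nrsn2 (chromosome 2, 152194491 to 152202374, minus strand) was at 2.88, 5.09 and 7.39 CPM at P21 and at 59.9 ± 14.2 CPM at P60 (log2 3.80 ± 0.51, edgeR adjusted p = 2.4e-06), on 3 UMIs at P21 (ratio 14.7, exact counting interval 4.98 to 71.5). Resp18, a protein of dense-core vesicles, rose from 130 ± 27.5 to 438 ± 49.9 CPM (log2 1.70 ± 0.18, edgeR adjusted p = 2.2e-08). The other named rises were Incenp (log2 2.39), Gm13629 (2.07), Echdc2 (2.06), Pcbd1 (1.99), Tmem126b (1.86), Matn2 (1.79), Dnajc12 (1.79), Gstt1 (1.73) and Hat1 (1.68).

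In synaptic and signalling lists the called genes went both ways. The counts describe the lists and stand beside 4.37% called higher and 6.49% called lower among all tested genes. Of 28 vesicle release genes 3 rose and 2 fell. Snap25, a SNARE of synaptic vesicle fusion, was at 3469, 3692 and 3221 CPM at P21 and at 5285 to 6382 CPM in the saline libraries (log2 0.74 ± 0.12, edgeR adjusted p = 7.5e-05). Syt5 (log2 1.00) and Rims3 (1.01) rose, and Syt7 (-0.66) and Syn1 (-0.68) fell. Of 12 calcium sensor and buffer genes 2 rose and 2 fell. Calb1 was at 492, 341 and 399 CPM at P21 and at 74.9 to 176 CPM in the saline libraries, without overlap (log2 -1.66 ± 0.18, edgeR adjusted p = 2.2e-08). Hpcal1 fell with it (-1.34), and Vsnl1 (1.10) and Ncald (0.61) rose.

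In the channel and receptor lists the called genes are read against the 10.9% called of all tested genes. Of 26 potassium channel genes Kcnip3 rose (log2 1.38), and Kcnf1 (-0.94) and Kcnip2 (-0.73) fell. Of 11 glutamate receptor genes Gria3 (-0.75) and Grin2a (-1.03) fell, and of 16 sodium, calcium and HCN channel genes Cacna1a (-0.75) fell. In these 3 lists DESeq2 called 2, 1 and 0 genes. Of 11 GABA receptor genes edgeR and DESeq2 called 0 (3 at an unadjusted p below 0.05 by edgeR, median log2 difference -0.08), and of 5 neuromodulator receptor genes both called 0 (1 at an unadjusted p below 0.05, median 0.08). Among secreted synaptic factors Cbln4 rose from 10.3 to 44.4 CPM (log2 1.48) and Cbln2 fell from 113 to 38.5 CPM (-1.40).

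Of 19 layer transcription factors 4 fell: Cux2 (log2 -0.80), Satb1 (-0.91), Bhlhe22 (-1.32) and Zfp238 (-0.63). The share called lower among all tested genes was 6.49%. Rprm, a CT marker, fell from 273 to 99.2 CPM (-1.28). In the list of chromatin genes taken from the study, Dnmt3a, a de novo DNA methyltransferase, fell from 109, 132 and 229 CPM to between 35.0 and 68.1 CPM (log2 -1.78 ± 0.24, edgeR adjusted p = 2.4e-06). Yeats4 fell (-1.62) and Prmt1 rose (0.82), of 8 tested. That list was chosen by the study with these samples in hand and is not independent evidence of a direction. Of 77 oxidative phosphorylation genes 2 rose (Ndufv1 1.45 and Uqcrc1 0.81) and 3 fell (Uqcrfs1 -1.70, Cyc1 -1.40 and Cox5a -2.16). With 10.9% of all tested genes called, these counts show nothing particular to this list. Of 3 tested astrocyte markers Slc1a2 fell from 697 to 409 CPM, and in the other excitatory clusters it was at 696 and 336 CPM.

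Several genes that were high in Exc_10 did not pass the test of age. Rorb was at 227, 290 and 347 CPM in P21-1, P21-2 and P21-3 and at 242 to 325 CPM in the saline libraries, with a log2 difference of 0.00 ± 0.16. Of the 4 tested layer 4/5 IT genes edgeR and DESeq2 called 0, with 0 at an unadjusted p below 0.05 and a median log2 difference of -0.11. With 10.9% of all tested genes called by edgeR, a count of 0 among 4 is near that share and does not show that these genes are stable. Ddit4l (0.34 ± 0.18, edgeR adjusted p = 0.21) and Pld5 (0.38 ± 0.47, 0.66) were not called either. Cartpt was at 259, 214 and 88.7 CPM at P21 (71.4% of its UMIs in P21-2 were in 1 cell) and at 64.5 ± 37.0 CPM in saline P60 (log2 -1.35 ± 0.41, edgeR adjusted p = 0.066), and it overlapped between ages. Because P21 cells were assigned by their likeness to P60 clusters, marker levels at P21 are not independent of the assignment. At P21, Gm13629, Mmel1 and Tmem44 were not highest in Exc_10, with ratios to the highest other cluster of 0.535, 0.524 and 0.943.

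**Figure D4:**
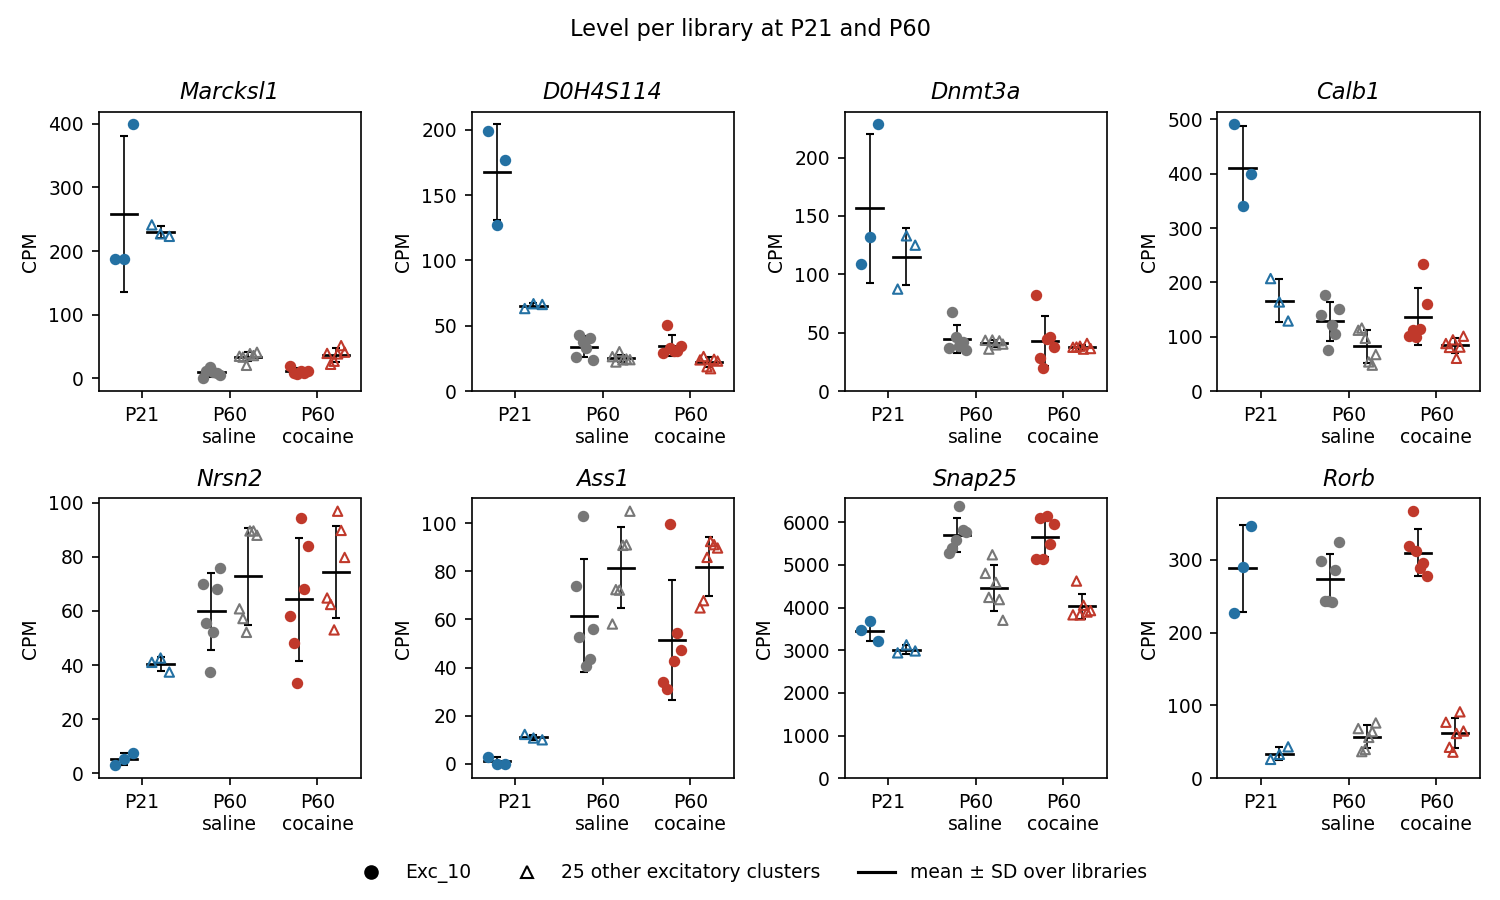
Level in CPM (vertical axes) of 8 genes per library at P21, P60 saline and P60 cocaine (horizontal axes), in Exc_10 (filled circles) and in the other 25 excitatory clusters together (open triangles), with bars for mean ± SD. Marcksl1, D0H4S114, Dnmt3a and Calb1 are higher at P21, Nrsn2, Ass1 and Snap25 higher at P60, and Rorb overlaps between ages in Exc_10.

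Most age differences were not shown to be larger or smaller in Exc_10 than in the other excitatory clusters. The interaction of age and cell set, with the library as a block, was called for 35 of 11893 genes (0.294%), 18 with a more positive and 17 with a more negative difference in Exc_10. The values that follow are the Exc_10 difference minus that of the other clusters, on the log2 scale. The other clusters were summed over their cells, and their mix differed between ages. Exc_20 had 495 cells at P21 and 175 over all P60 libraries, and Exc_23 had 121 and 547. The part of that mix in these values was not tested. Nrsn2 (2.91 ± 0.60, edgeR adjusted p = 0.001) and Echdc2 (1.92) rose more in Exc_10. In the sum of the other clusters Nrsn2 was already at 40.3 ± 2.67 CPM at P21 and at 72.9 ± 18.0 CPM at P60. Its low P21 level was not particular to Exc_10. In Exc_11 it was at 0 CPM in both P21-1 and P21-3, and in Exc_8 at 8.94, 2.17 and 2.15 CPM at P21. Across P60 libraries it was at 0 to 35.0 CPM in Exc_11 and at 15.9 to 70.0 CPM in Exc_8. Ccdc80 (-2.60 ± 0.41, edgeR adjusted p = 4.3e-07) fell from 45.4 to 10.7 CPM in Exc_10 and was at 29.4 and 31.7 CPM in the others. Etv1 (-1.66), a factor of layer 5 cells, was at 28.3 CPM at P21 and 6.90 CPM at P60 in Exc_10, and at 112 and 98.6 CPM in the others. Hpcal1 (-1.28), a hippocalcin-like calcium sensor, and Car4 (-0.88), a carbonic anhydrase, were also more negative, and Lynx1 (1.22), a modulator of nicotinic receptors, more positive.

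Other calls in this test concerned genes described above, named after their values were seen. Marcksl1 fell further in Exc_10 (-2.08 ± 0.25, edgeR adjusted p = 1.3e-13), from 258 to 9.35 CPM, than in the other clusters, from 231 to 34.1 CPM. D0H4S114 did so as well (-0.87 ± 0.20, edgeR adjusted p = 0.0053). Resp18 (0.76) and Ndufv1 (0.80) rose further. Rorb (-0.81 ± 0.15, edgeR adjusted p = 0.00022) was level in Exc_10 and went from 33.8 to 56.6 CPM in the sum of the others. Within that sum Rorb differed between clusters at P60, with 217 CPM in Exc_23 and 3.04 CPM in Exc_20. The part of the mix of clusters in the Rorb value was not tested. For Cartpt the value was 1.88 ± 0.26, since the others went from 7.21 to 0.634 CPM.

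Calca and Cald1 have limits of their own. Calca, which encodes CGRP, had 0 UMIs at P21 and 67 in the saline P60 members. The saline P60 level was 2.96-fold that of a floor of 3 UMIs over the P21 members (4.42 CPM). The exact counting interval of the ratio reaches down to 2.34, and library 5 alone reached 74.9 CPM. At P21 the summed oligodendrocyte markers were 30.6 to 214 CPM in the members and 287 to 594 CPM in the other clusters. Cald1 (-3.45) had a value of 0.01 when only cells of the authors' class excitatory were summed. With the 3 most similar clusters in place of all others, 6 genes were called, and DESeq2 also called 6.

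Few genes were called between cocaine and saline libraries in Exc_10 at maintenance and after 48 h, where most libraries held few members, and a gene that was not called is not shown to be alike. At maintenance 1 of 7910 genes was called (0.0126%), with 630 at an unadjusted p below 0.05 and 1 called by DESeq2. It was Pcp4, a calmodulin-binding protein, at 1380 and 1759 CPM in the cocaine libraries and 888 and 702 CPM in the saline libraries (log2 0.97 ± 0.18, edgeR adjusted p = 0.0096). Without library 3 it was 0 genes that were called, and without library 4 it was 11. Across all P60 libraries Pcp4 ranged from 702 to 1993 CPM, and the maximum was in a saline library. Its exons overlap those of Igsf5 on the same strand. After 48 h 1 of 7910 (0.0126%) was called, with 610 at an unadjusted p below 0.05 and 0 called by DESeq2. It was 2610524H06Rik, at 26.5 and 43.9 CPM in cocaine and 122 and 98.9 CPM in saline (log2 -1.37 ± 0.28, edgeR adjusted p = 0.046), whose exons overlap those of Gm20499 on the same strand.

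After 15 d of withdrawal 139 genes (1.76%) were called, 137 higher (1.73%) and 2 lower (0.0253%) in cocaine. The values of libraries 9 and 10 for these genes set them apart in other cell types too, as given below. The largest were 2410004B18Rik (log2 2.31), Fbxl15 (2.19), Mrps34 (1.78), Ier2 (1.70) and Pigx (1.62). Fbxl15, an F-box protein, was at 51.0 and 49.9 CPM in cocaine libraries 9 and 10 and at 8.60 and 14.6 CPM in saline libraries 11 and 12 (log2 2.19 ± 0.27, edgeR adjusted p = 2.4e-08). Mrps34, of the mitochondrial ribosome, was at 92.4 and 72.2 CPM against 18.9 and 32.1 CPM, and its exons overlap those of Nme3 on the same strand. Of the gene lists, the called members were Nrgn (0.90), Calb1 (0.68), Junb (1.5), Ier5 (1.03), Yeats4 (0.94), Ube2d3 (0.61) and Uqcrfs1 (1.13) with Ier2. Sc4mol, of sterol synthesis, was lower (-0.70). For Cartpt, Rorb, Fos and Bdnf the adjusted p of edgeR lay between 0.86 and 1. By edgeR 559 genes were at an unadjusted p below 0.05. DESeq2 called 3 genes in its own test. The count was 22 without library 11, 28 without library 9, 92 without library 10 and 254 without library 12. The saline libraries of 15 d are also part of the comparison with P21. Side by side, the log2 differences at 15 d and between ages were 1.49 and -2.36 for Pfn1, 1.36 and -2.19 for Tomm20, 1.54 and -2.19 for Tmem42, and 1.13 and -1.70 for Uqcrfs1. For the immediate early genes they were 1.5 and -2.90 for Junb and 1.70 and -2.69 for Ier2, and they were 0.94 and -1.62 for Yeats4 and 0.68 and -1.66 for Calb1.

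The 137 higher genes were also higher in libraries 9 and 10 in cells other than Exc_10. The median log2 difference of the 137 genes, cocaine minus saline at 15 d, was 0.78 in Exc_10, 0.68 in the other excitatory clusters and 0.62 in endothelial cells, and all 137 were higher in each of these sets. Against the mean of the P60 libraries, their median in Exc_10 was 0.85 in library 9, 0.74 in library 10, -0.29 in library 11 and 0.28 in library 12, and in endothelial cells it was 0.73, 0.74, -0.11 and 0.28. In P21-1, P21-2 and P21-3, with no cocaine, it was 1.12, 0.56 and 0.50 in Exc_10 and 1.19, 0.42 and 0.30 in endothelial cells. The transcripts of the 137 genes had a median GC content of 52.7% and a median length of 1938 bases, against 49.8% and 3094 bases for the other tested genes.

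**Figure D5:**
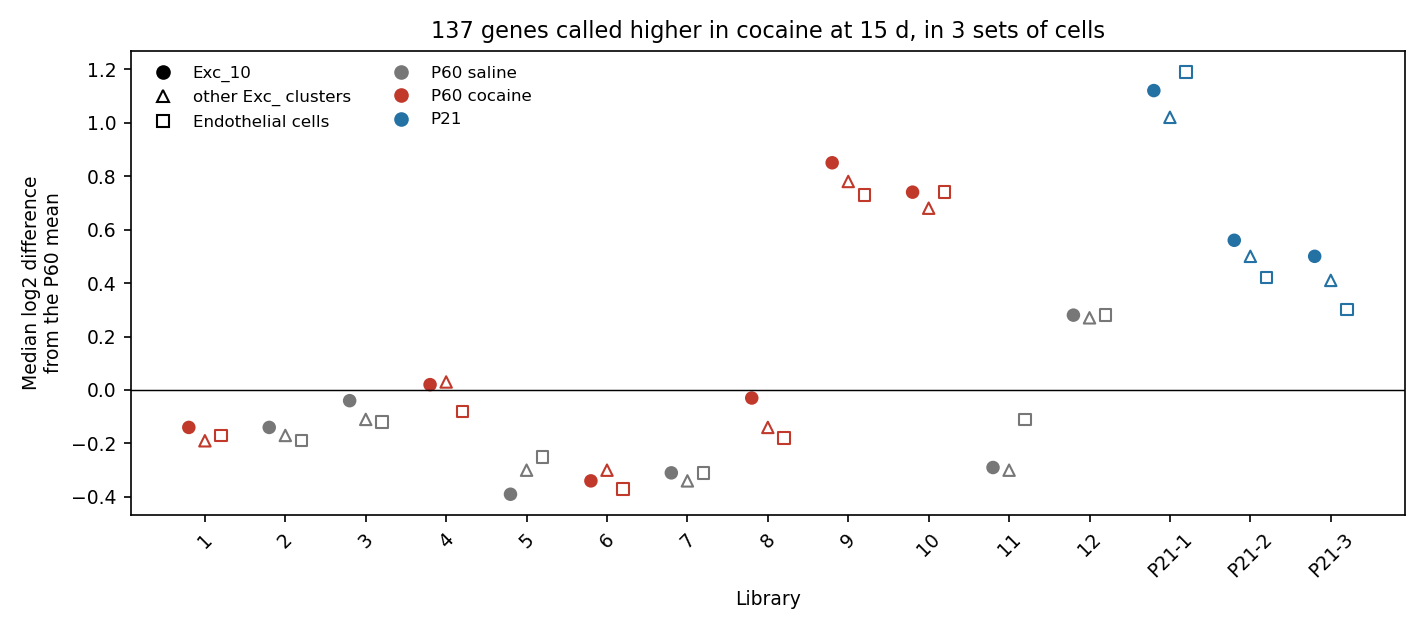
Median log2 difference from the mean of the P60 libraries (vertical axis) of the 137 genes called higher in cocaine at 15 d, per library (horizontal axis), in Exc_10 (filled circles), the other excitatory clusters (triangles) and endothelial cells (squares). In every library the 3 sets of cells lie close together, and libraries 9, 10 and P21-1 are highest in each set.

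Tested directly, a cocaine difference at 15 d that differed between Exc_10 and the other excitatory clusters was called for 1 of 12161 genes (0.00822%), with 412 at an unadjusted p below 0.05 and 0 called by DESeq2. It was Prrg1, a membrane protein with a Gla domain (-4.19 ± 0.82, edgeR adjusted p = 0.0045), with 2 UMIs in the cocaine and 24 in the saline libraries. The ratio, saline over cocaine, was 16.8 (exact counting interval 4.16 to 146). Of the 137 genes 0 were called in this test by edgeR, 3 were at an unadjusted p below 0.05, and their median was 0.04. Without library 10 the count was 0.

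Taken over the 3 time points, 11 genes (0.139%) differed between cocaine and saline, 10 higher and 1 lower, with 868 at an unadjusted p below 0.05 and 0 called by DESeq2. In 3 of them all 6 cocaine libraries lay above all 6 saline libraries, a count from the same values as the calls and no added support. Ier5, an immediate early response gene, was at 48.4 and 48.0 CPM in cocaine against 22.1 and 18.6 CPM in saline at maintenance. It was at 33.2 and 47.2 CPM against 18.7 and 16.9 CPM after 48 h, and at 45.3 and 34.8 CPM against 20.1 and 21.2 CPM after 15 d. The cocaine libraries were higher at each time point (log2 1.19 ± 0.22, edgeR adjusted p = 0.0068). At P21 it was at 23.0, 35.6 and 14.8 CPM. Ypel3 was another (0.71, edgeR adjusted p = 0.036). In the other excitatory clusters at 15 d Ier5 was at 41.5 and 37.2 CPM in cocaine and 25.3 and 24.8 CPM in saline. The count was 0 without library 8 and 63 without library 12.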

How the data were processed

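Single cells of the dissected PFC were captured and sequenced by the authors on the 10x Chromium platform. According to the labels' processing notes, reads were aligned to mm9 (NCBIM37) and counted with Cell Ranger, and cells were clustered with Seurat 2.1.0. The deposited values are raw UMI counts of 26145 genes per cell, without normalization. The deposited cell table holds, for each retained cell, its library, broad class and fine cluster, with the mitochondrial share of its UMIs as a fraction. Doublets and damaged cells were removed by the authors through limits on genes and mitochondrial share and, per the methods, by inspection of clusters, and no further filter or doublet caller was applied. The labels name NAc as the tissue while titles and methods name the PFC, which was used. For P21, the authors assigned cells by correlation to the clusters of P60.

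Before any scaling, 13 mitochondrial and 144 ribosomal protein genes were dropped. UMIs were summed over the Exc_10 cells of a library, and a library needed 10 cells. Genes with repeated symbols (304 entries) were not named. Tests used edgeR 4.0.16 in R 4.3.3 (default filter on low counts, TMM scaling, robust quasi-likelihood test), and a call needed an adjusted p (Benjamini-Hochberg) below 0.05 with over 1.5-fold change. Age was tested on 3 P21 and 6 saline P60 libraries, and cocaine on all 12 P60 libraries with 6 group means. Interactions had the library as a block. Shares were tested by exact permutation. Levels are means and SDs of library CPM, and ratios add 1 CPM. A count of 0 was read against a floor of 3 UMIs over the group. The test was tried on simulated data first. Named genes were the 12 with the largest ratio to the next cluster (20 CPM or more), the 8 highest and 8 lowest ratios to the median cluster, the 6 highest and lowest against each of the most similar clusters (50 CPM or more), the 12 largest rises and falls by age, and 5 each way in other tests, among called genes whose libraries did not overlap, and members of the lists that passed the test. Some genes that these rules name are not reported here. Lists and members were chosen with earlier results of these data known. Sums and permutations were made in python 3.11.15 (scipy 1.17.1, pandas 2.3.3, numpy 2.4.6). Positions and overlaps come from the GENCODE annotation of NCBIM37, and the strand setting of the counting is not given in the sources used here. Alternatives were DESeq2 1.42.0, its size factors, no filter on low counts, 20 cells per library, mitochondrial and ribosomal genes kept, no fold limit, cells drawn in equal numbers, only the 15 d saline or all P60 libraries against P21, other comparison clusters, and leaving out each library in turn. After the data were seen, summing P21-2 with P21-3, cells of the class excitatory only, and endothelial cells as the comparison set were added.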

Additional observations from a re-analysis of the deposited data

Results flagged for a closer look

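Among 26 tests for a single library far from the rest of its group, 3 genes stood out in the 6 saline P60 libraries, and chance alone marks about 1 group in 20. Matn2 was highest in library 3, at 40.2 CPM, Dnajc12 was highest in library 5, at 93.6 CPM, and Ccdc80 was highest in library 5, at 28.1 CPM. Library 5 rests on 10 members.

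The age difference differed between Exc_10 and the other excitatory clusters by the interaction test of edgeR for 10 named genes, 9 of which are given here. The Exc_10 difference exceeded that of the other clusters, on the log2 scale, for Calca (11.18, a fitted value against 0 UMIs at P21 and so no bound), Nrsn2 (2.91), Echdc2 (1.92) and Lynx1 (1.22). It lay below that of the other clusters for Cald1 (-3.45), Ccdc80 (-2.60), Etv1 (-1.66), Hpcal1 (-1.28) and Car4 (-0.88). For the cocaine difference at 15 d the test marked Prrg1 (-4.19), with 2 UMIs in the cocaine and 24 in the saline libraries of 15 d.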

How the results depend on the processing

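Several sets hold few cells. For age, 569 genes were called, with 158 against the saline libraries of 15 d alone, 118 with equal numbers of cells, and 302 (without P21-3) to 621 (without library 12) when 1 library was left out. Over 63 named genes and 1213 alternative values of the age test, 1019 kept direction and call, 194 lost the call and 0 turned.

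At maintenance the count of 1 became 2 without a filter on low counts, and 0 (without library 3) to 11 (without library 4) with 1 library left out. It was 2 without library 1 or library 2. At 48 h the count of 1 became 0 with DESeq2, with its size factors, with 20 cells per library, with mitochondrial and ribosomal genes kept and with the class excitatory only, 4 without a filter, and 0 (without library 8) to 4 (without library 5). At 15 d the 139 became 3 with DESeq2 and 22 (without library 11) to 254 (without library 12). Over time points the 11 became 0 with DESeq2, 18 without a filter, and 0 (without library 8) to 63 (without library 12), with 4 without library 1 or 2, 2 without library 3, 21 without library 4 or 6 and 17 without library 10.

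The 35 age interactions became 6 with the 3 most similar clusters and 6 with DESeq2, and 25 to 42 with 1 library left out. Cald1 turned to 0.01 with the class excitatory only. The 1 cocaine interaction became 0 with the 3 most similar clusters, 0 with DESeq2 and 2 with endothelial cells in place of the other clusters, and 0 to 1 with 1 library left out. The causes were not tested.

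The share difference between ages, 4.63 points, was 4.39 of all neurons (exact permutation p = 0.0595), 2.51 of all cells (exact permutation p = 0.0952), and 3.84 to 5.58 with 1 library left out. That between cocaine and saline, -0.000152 points, was 0.216 of all cells (exact permutation p = 0.75), and -1.45 to 1.45 with 1 library left out, 0.0261, 0.291, 0.407, 0.547, 0.94 and 1.45 being above 0. The 6 genes over 1.5 times the next cluster at P60 were 26 at P21, where the ratios of Gm13629 (0.535), Mmel1 (0.524) and Tmem44 (0.943) fell below 1. No paired analysis was possible because no label ties a library of one treatment or age to one of another. Only the interactions, which compare cells within a library, had a block.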
